A study of Mus musculus with 8 samples.

Results

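A set of 33 genes of the red cell lineage was followed through long-bone RNA of mice given vehicle or doxorubicin: 4 adult globins, 8 genes of haem synthesis, 10 genes of the red cell membrane and its skeleton, 3 transcription factors with the erythropoietin receptor, and 7 other genes expressed in the erythroid lineage. They were chosen by symbol from the 55421 genes of the deposited table, all 33 were found, and all 33 passed the filter on low counts. The samples were tibiae and femurs of 8 wild-type male C57BL/6 mice, 15 weeks old at the start, with the bone ends cut off and the marrow spun out; both bones of both legs of 1 mouse gave 1 library. The CTRL group (4 mice) had an intraperitoneal injection of saline and the DoxoR group (4 mice) a single intraperitoneal injection of doxorubicin at 10 mg/kg, and bones were taken on day 30. Doxorubicin is an anthracycline that poisons topoisomerase II and breaks DNA. No other drug, transgene or deletion is named for either group, and the comparison asked how the red cell lineage genes stood in the bones 30 days after the drug.

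Red cells form in the bone marrow. Erythroid progenitors carry the erythropoietin receptor. In this lineage GATA1, TAL1 and KLF1 drive genes for globin and for the enzymes that build haem in mitochondria and cytosol. The same factors drive genes for a membrane held by a spectrin and ankyrin mesh. Erythroblasts then stop dividing and expel the nucleus, and the reticulocytes that leave the marrow still hold globin mRNA, so blood left in a bone also carries these transcripts.

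None of the 33 genes differed between the groups beyond the spread between mice. In edgeR's quasi-likelihood test 0 of the 33 passed an adjusted p of 0.05, with adjusted p from 0.856 to 0.951, and 0 had an unadjusted p under 0.05. Over all 17035 tested genes the shares were 0% higher and 0% lower after adjustment, and 5.36% at an unadjusted p under 0.05 (2.13% higher and 3.23% lower). DESeq2 and limma-voom also placed 0 of the 33 past either limit; DESeq2 placed 0.0411% of all genes higher and 0.129% lower after adjustment, and limma-voom 0%, with 5.59% and 5.52% at an unadjusted p under 0.05. The fitted log2 fold changes of DoxoR over CTRL were nonetheless below 0 for 32 of the 33, from −0.43 for Hbb-bs to 0.08 for Ank1, with a median of −0.25. The median over all tested genes was 0.04, and 42.8% of all tested genes lay below 0. Below that median lay 32 of the 33, against 50% of all tested genes by construction. Members of the list rose and fell together from mouse to mouse, so the 32 are not 32 separate observations. The CPM of the groups overlapped for all 33, while 3.59% of all tested genes had groups that did not overlap (1.95% lower and 1.64% higher).

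Mice of the same group differed widely from each other. For 31 of the 33 genes the 3 highest libraries were CTRL 3, CTRL 4 and DoxoR 3, and Ank1 and Sptb were the exceptions. DoxoR 4 was the lowest library for 23 genes and DoxoR 1 for 8. CTRL 4 was the highest for 19 and DoxoR 3 for 11. The highest library exceeded the lowest by between 1.64 times (Fech) and 2.84 times (Hbb-bs), with a median of 2.19. For 20 of the 33 genes the highest and the lowest library were in different groups. Hbb-bs spanned 2.16 times within CTRL and 2.32 times within DoxoR. The coefficient of variation within a group had a median over the 33 genes of 23.2% in CTRL and 33.5% in DoxoR, against 17.7% and 16.1% over all tested genes. The value in DoxoR rested on DoxoR 3: without that library it was 10.4%, against 13.6% over all tested genes. The replicate numbers carry no order.

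**Figure D1:**
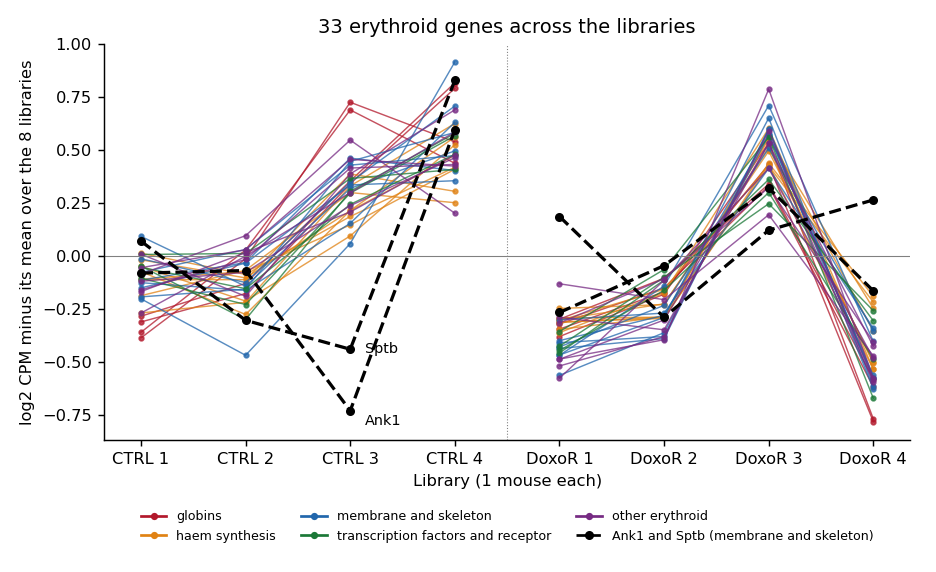
Level of each of the 33 genes in each library, as log2 CPM minus that gene's own mean over the 8 libraries (y axis), against library (x axis, 1 mouse each); 1 line per gene, coloured by class, with Ank1 and Sptb dashed in black and lines broken between the groups. Nearly all lines peak in CTRL 3, CTRL 4 and DoxoR 3, while Ank1 and Sptb are lowest in CTRL 3.

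DoxoR 3 stood apart from the other doxorubicin mice for these genes. Without it, 26 of the 33 had an unadjusted p under 0.05 in edgeR, all 26 of them lower in doxorubicin bones, while 5.6% of all tested genes were lower and 2.14% higher at that limit. After adjustment 0 of the 33 passed in that fit too, with adjusted p from 0.494 (Epb42, Kel, Hemgn and Trim10) to 0.97 (Ank1), and their median log2 fold change was −0.53. DoxoR 3 was singled out by these same genes, which vary together, so the 26 are not separate observations. Without it the members' median coefficient of variation in DoxoR fell from 33.5% to 10.4%, while CTRL 3 and CTRL 4, also high, stayed in. The values without DoxoR 3 are thus a description and not a test of the drug. No label marks DoxoR 3 as different, so it stays in every value given here unless stated. In the same library the 9 neutrophil markers summed to 23418 CPM, against 8998 to 17528.5 in the other DoxoR libraries, and the 6 markers of cycling cells to 2157 CPM, against 829 to 1176. The 7 megakaryocyte markers summed to 1176 CPM there, inside the 673 to 1252 of the group. The 5 skeletal muscle markers summed to 10173 CPM in DoxoR 3, against 11081 to 21797 in the other DoxoR libraries. The 7 bone-cell markers summed to 2594 CPM there, inside the 2087 to 7836 of the group. When any other single library was left out, at most 1 of the 33 had an unadjusted p under 0.05. Without CTRL 4 it was 0 of the 33, while 6.36% of all tested genes were lower and 4.11% higher. With the replicate number as a block it was 3 (Tal1, Car1 and Hemgn, all lower), against 3.96% of all tested genes lower and 4.64% higher. The median log2 fold change of the 33 lay between −0.53 and −0.15 over the 8 fits that left out 1 library.

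**Figure D2:**
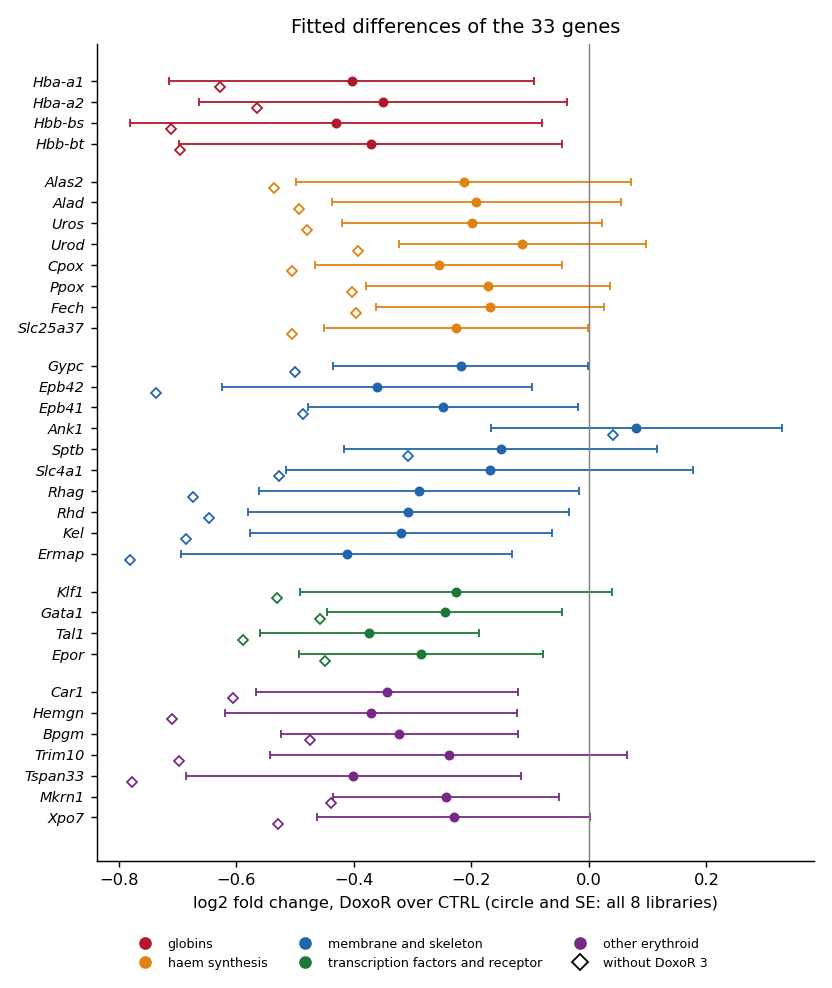
Fitted log2 fold change of DoxoR over CTRL for each gene (x axis), grouped by class (y axis); filled circles with bars are the value and SE from all 8 libraries, and open diamonds the value without DoxoR 3. With all libraries 32 of 33 circles lie below 0 and none passes the test; without DoxoR 3 every diamond but that of Ank1 lies below 0, and each of the 33 lies to the left of its circle.

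The bones were labelled as free of marrow, but marrow transcripts were present in every library. Library totals ran from 23699525 to 35747083 counts. The neutrophil markers summed to between 13115 and 25505 CPM in CTRL and 8998 to 23418 in DoxoR, and the bone-cell markers to 2347 to 5084 and 2087 to 7836 CPM. The 8 macrophage markers summed to 488 to 939 CPM in CTRL and 389 to 663 in DoxoR, and all 8 had log2 fold changes below 0 (median −0.44). The 7 megakaryocyte markers were likewise all below 0 (median −0.46), at 1190 to 2080 CPM in CTRL and 673 to 1252 in DoxoR. Over all tested genes 42.8% lay below 0. Markers of the same cell type can vary together, so neither count is of separate observations. The 3 embryonic globin genes Hbb-y, Hbb-bh1 and Hba-x together reached at most 0.359 CPM and were too low to test, so the globin signal was of the adult type. The part of residual marrow and blood in the differences between mice was not tested, and in these bulk samples fewer red cell precursors and less RNA in each cannot be told apart.

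The globins were by far the most abundant genes of the list. Hbb-bs and Hbb-bt encode the adult beta chains of C57BL/6 mice and lie in the beta cluster (GRCm38 chromosome 7, 103826534 to 103828096 and 103812524 to 103813996), and Hba-a1 and Hba-a2 encode the alpha chain (chromosome 11, 32283511 to 32284465 and 32296489 to 32297298). Together they took 1.68%, 1.81%, 3.48% and 3.57% of all counts in CTRL 1 to 4 and 1.45%, 1.94%, 3.06% and 1.27% in DoxoR 1 to 4. The means were 2.64% ± 1.03 and 1.93% ± 0.805 (SD, n = 4 each), and the ranges overlapped. Hbb-bs stood at 7491, 9704, 16197 and 14225 CPM in CTRL 1 to 4 and at 7709, 8708, 13213 and 5695 CPM in DoxoR 1 to 4. CTRL 1 was thus below 3 of the 4 DoxoR mice. Its log2 fold change was −0.43 ± 0.35 (SE), with an unadjusted p of 0.248 and an adjusted p of 0.856 in edgeR. Hba-a1 was at 3392, 3777, 5281 and 7279 CPM in CTRL and 3306, 3721, 5195 and 2692 CPM in DoxoR, a log2 fold change of −0.40 ± 0.31 (SE). That of Hba-a2 was −0.35 ± 0.31 and that of Hbb-bt −0.37 ± 0.33 (SE). The median of the 4 was −0.39, and lay between −0.66 without DoxoR 3 and −0.25 without DoxoR 4. Per kilobase of mRNA, Hbb-bs was at 18956 CPM in CTRL, Hba-a2 at 10229, Hba-a1 at 7056 and Hbb-bt at 4152. For Hba-a2 and Hba-a1 these values rest on annotated lengths of 554 and 699 bases, with CTRL means of 5667 and 4932 CPM.

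**Figure D3:**
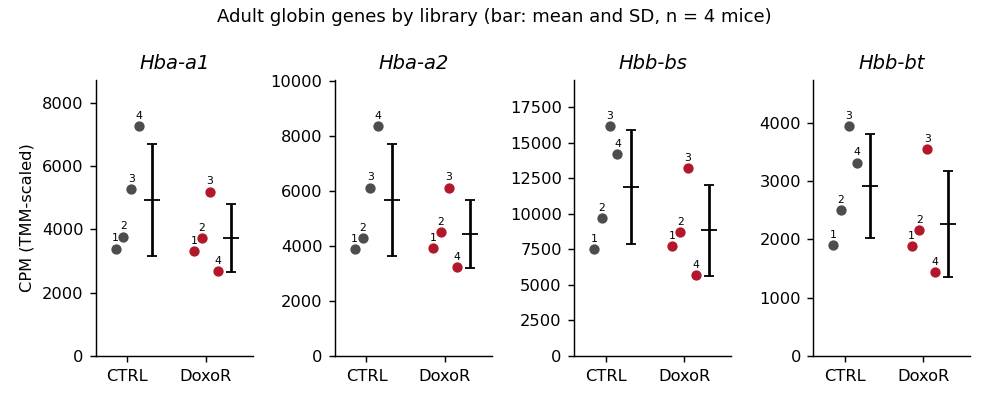
TMM-scaled CPM of the 4 adult globin genes (y axes, each from 0) in CTRL and DoxoR mice (x axis); numbered points are mice, and bars show the mean and SD of 4. In each panel CTRL 3, CTRL 4 and DoxoR 3 are high and DoxoR 4 is lowest.

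The copies within each globin pair are almost the same in sequence, which bears on how reads were divided between them. In the GENCODE M21 transcripts the 429 coding bases of Hba-a1 and Hba-a2 differ at 1 position, C381T counted from the A of the start codon, with the base of Hba-a1 first. The 444 coding bases of Hbb-bs and Hbb-bt also differ at 1 position, C417T, with the base of Hbb-bs first. The stretches around these positions are shown 5′ to 3′, coding bases 351 to 411 of the alpha pair and 387 to 444 of the beta pair, with the base that differs in capitals.
Hba-a1: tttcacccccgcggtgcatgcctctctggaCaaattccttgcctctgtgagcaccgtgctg
Hba-a2: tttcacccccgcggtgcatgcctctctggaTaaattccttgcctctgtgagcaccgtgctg
Hbb-bs: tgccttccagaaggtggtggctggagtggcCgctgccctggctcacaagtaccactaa
Hbb-bt: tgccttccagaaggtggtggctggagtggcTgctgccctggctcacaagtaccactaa
Outside the coding bases the annotated transcripts were compared in length only: Hba-a1 has 196 bases before the start codon and 74 after the stop codon, and Hba-a2 has 35 and 90. A read that lies within the coding bases and does not cover the 1 differing base fits both copies, so the split between copies is an estimate.

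Ratios between the globin genes were compared after the counts had been seen, as 3 ratios of raw counts. The ratio of Hba-a2 to Hba-a1 was 1.149, 1.132, 1.16 and 1.15 in CTRL 1 to 4 and 1.189, 1.208, 1.178 and 1.201 in DoxoR 1 to 4. Each doxorubicin mouse lay above each vehicle mouse, by a mean factor of 1.04. The two-sided exact permutation p was 0.0286, the smallest that 4 against 4 can give, and 0.0858 when adjusted over the 3 ratios, so it did not pass. The ratio of Hbb-bt to Hbb-bs was 0.247 ± 0.0111 in CTRL and 0.253 ± 0.0106 in DoxoR (SD, n = 4 each; exact permutation p = 0.514, adjusted 0.686). The ratio of beta to alpha globin counts ran from 1.12 (CTRL 4) to 1.77 (CTRL 3) and from 1.204 to 1.481 in DoxoR, with an exact permutation p of 0.686 (adjusted 0.686). CTRL 3 and CTRL 4, which were both rich in globin, were thus the 2 ends of the beta to alpha ratio.

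**Figure D4:**
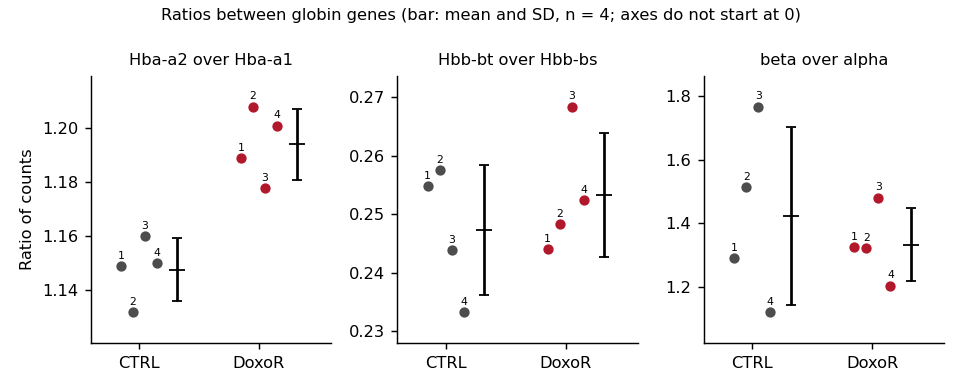
Ratios of raw counts between globin genes (y axes, not from 0) in CTRL and DoxoR mice (x axis); numbered points are mice, bars the mean and SD of 4. The ratio of Hba-a2 to Hba-a1 separates the groups without overlap, by a factor of 1.04, and the other ratios overlap.

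Haem is built from glycine and succinyl-CoA by a chain of enzymes, and 7 enzymes of it and the mitochondrial iron importer were on the list. All 8 genes had log2 fold changes below 0, with a median of −0.20 and a range from −0.26 (Cpox) to −0.11 (Urod). That median was −0.49 without DoxoR 3 and −0.08 without CTRL 4, the ends of its range with 1 library left out, and 0 passed the test (adjusted p 0.856 to 0.915 in edgeR). Alas2, the erythroid enzyme of the first and rate-limiting step, was at 265.5, 274.9, 402.2 and 493.4 CPM in CTRL 1 to 4 and at 249.0, 283.3, 485.6 and 220.8 CPM in DoxoR 1 to 4. Its mean was 359 ± 109 CPM in CTRL and 310 ± 120.04 CPM in DoxoR (SD, n = 4 each). Slc25a37 (mitoferrin 1), which brings iron into the mitochondria of erythroblasts, was at 403.8, 376.7, 455.4 and 534.9 CPM in CTRL and 325.1, 342.2, 564.1 and 282.7 CPM in DoxoR. DoxoR 3 was the highest of all 8 mice for Slc25a37 and the next after CTRL 4 for Alas2. For Slc25a37 the other 3 DoxoR mice lay below every CTRL mouse, and for Alas2 DoxoR 1 and DoxoR 4 did. Per kilobase of mRNA, Alas2 was at 183 CPM in CTRL and Slc25a37 at 106, above the other 6 genes of the chain, which lay between 25.7 (Alad) and 54.1 (Fech). Alad joins 2 molecules of aminolevulinate, and Uros and Urod make and trim the uroporphyrinogen ring. Their CTRL means were 31.5 ± 8.13, 39.8 ± 7.32 and 63.2 ± 10.3 CPM, and their DoxoR means 27.6 ± 9.72, 34.6 ± 11.6 and 58.4 ± 19.2 CPM (SD, n = 4 each). Cpox and Ppox oxidise the ring in mitochondria and Fech, ferrochelatase, inserts the iron. The mean of Fech was 210.3 ± 36.1 CPM in CTRL and 187 ± 49.9 CPM in DoxoR (SD, n = 4 each), and its log2 fold change was −0.17 ± 0.19 (SE).

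The membrane genes held the list's only 2 genes with another pattern over the mice. Of the 10, 9 were below 0 and 1 above, with a median of −0.27 (from −0.59 without DoxoR 3 to −0.16 without DoxoR 4), and 0 passed the test (adjusted p 0.856 to 0.951 in edgeR). Ermap, a blood group protein of the erythroid membrane, had the lowest value, −0.41 ± 0.28 (SE). It was at 114.6, 106.0, 147.2 and 188.9 CPM in CTRL 1 to 4 and 78.24, 89.97, 171.8 and 78.20 CPM in DoxoR 1 to 4, so that 3 DoxoR mice lay below every CTRL mouse and DoxoR 3 was above 3 of them. Epb42 (protein 4.2, which ties band 3 to ankyrin) had a log2 fold change of −0.36 ± 0.26, and Kel, the Kell blood group protease, one of −0.32 ± 0.26 (SE). Rhag and Rhd, partners in the Rh complex, were at −0.29 ± 0.27 and −0.31 ± 0.27 (SE). Gypc, glycophorin C, which anchors the skeleton through protein 4.1, averaged 60.7 ± 10.7 CPM in CTRL and 52.2 ± 17.5 CPM in DoxoR. Epb41, protein 4.1 itself, averaged 319.9 ± 86.9 and 269 ± 74.9 CPM (SD, n = 4 each). Slc4a1, band 3, the chloride and bicarbonate exchanger and main membrane protein of red cells, was at 370.6, 308.1, 444.1 and 804.7 CPM in CTRL and 308.1, 386.5, 697.8 and 322.3 CPM in DoxoR. CTRL 4 was the highest of the 8 mice, and without it the log2 fold change of −0.17 ± 0.35 (SE) became 0.17.

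Ank1 (erythroid ankyrin) and Sptb (erythroid beta spectrin) form the link between band 3 and the spectrin mesh, and both genes are also transcribed in skeletal muscle. Ank1 was at 139.5, 140.6, 88.9 and 223.0 CPM in CTRL 1 to 4 and 167.8, 120.7, 160.5 and 177.2 CPM in DoxoR 1 to 4. Sptb was at 155.6, 120.1, 109.3 and 263.4 CPM in CTRL and 123.2, 143.6, 185.2 and 132.3 CPM in DoxoR. CTRL 3, rich in the other members, was the lowest of the 8 mice for both. It was also the lowest in the 5 muscle markers, which summed to 3243 CPM there, against 10173 to 21797 in the other 7 libraries. Over the 8 libraries the log CPM of Ank1 had r 0.759 and rho 0.548 with the mean of the muscle markers. For Sptb the r was 0.186 and the rho −0.143. All other members had negative values of both, with a rho from −0.857 (Hbb-bt) to −0.548 (Bpgm). DoxoR 1 and DoxoR 4, the libraries with the highest muscle sums, held 123.2 and 132.3 CPM of Sptb, below its mean in either group. These 2 libraries were also the lowest of the 8 for most members, DoxoR 4 for 23 and DoxoR 1 for 8. The part of attached muscle in these values was not tested. Over the 8 libraries the log CPM of Ank1 had a Pearson r of 0.0531 and a Spearman rho of −0.0238 with the mean of the other members outside the globins, and Sptb an r of 0.62 and a rho of 0.476. The median r over all 33 was 0.961, as a description over 8 libraries that share depth and scaling. The log2 fold change of Ank1 was 0.08 ± 0.25 and that of Sptb −0.15 ± 0.27 (SE). The sign of Ank1 turned without CTRL 3 (−0.14) and that of Sptb without CTRL 4 (0.16).

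**Figure D5:**
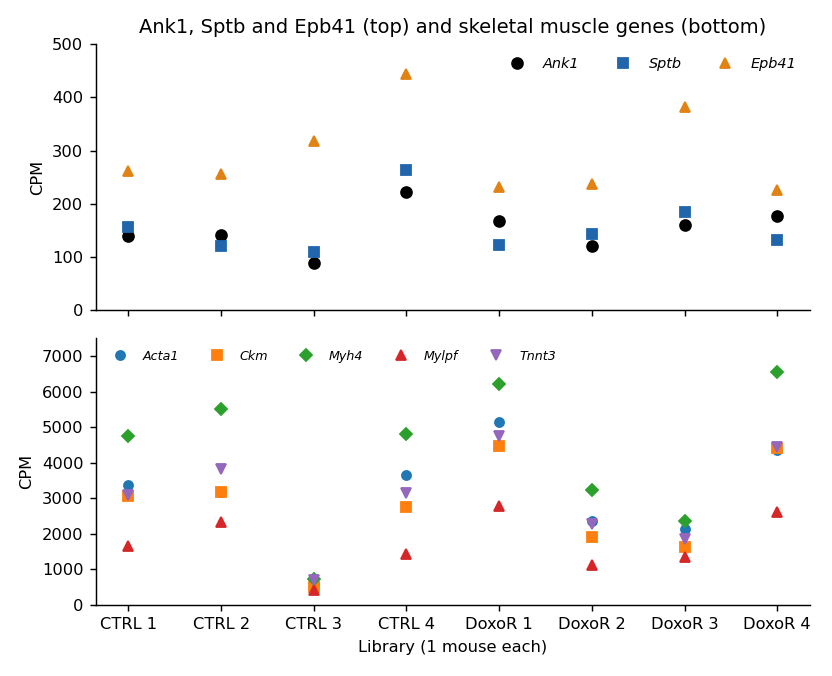
TMM-scaled CPM (y axes, from 0) of Ank1, Sptb and, for comparison, Epb41 (upper panel) and of 5 skeletal muscle markers (lower panel) in each of the 8 libraries (x axis, 1 mouse each). CTRL 3 is lowest for Ank1 and Sptb and for all 5 muscle markers, while Epb41 is lower there only than in CTRL 4 and DoxoR 3.

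All 4 regulators had log2 fold changes below 0, with a median of −0.27 (from −0.49 without DoxoR 3 to −0.15 without CTRL 4) and adjusted p from 0.856 to 0.879 in edgeR. Tal1, a basic helix-loop-helix factor of the erythroid and megakaryocyte lineages, had the smallest unadjusted p of the 33 genes (0.0737). It was at 79.4, 79.7, 101.9 and 104.9 CPM in CTRL 1 to 4 and 58.0, 70.7, 97.3 and 56.4 CPM in DoxoR 1 to 4, a log2 fold change of −0.37 ± 0.19 (SE). Again 3 DoxoR mice were below every CTRL mouse, and DoxoR 3 was above CTRL 1 and CTRL 2. Gata1, the zinc finger factor that both lineages need, had means of 31.8 ± 6.45 CPM in CTRL and 26.8 ± 7.03 CPM in DoxoR. Klf1, which activates beta globin, had means of 37.8 ± 9.73 and 32.4 ± 12.4 CPM (SD, n = 4 each). Epor, the receptor through which erythropoietin keeps progenitors alive, was at 19.9, 16.7, 25.4 and 30.7 CPM in CTRL and 15.3, 19.2, 24.4 and 17.2 CPM in DoxoR. Tal1 and Gata1 are shared with megakaryocytes, whose 7 markers were all lower in DoxoR as given above; their part in these 2 values was not tested. Of 4 genes of early progenitors 2 were below 0 and 2 above, and 0 passed the test. Cd34, a surface protein of stem and progenitor cells that vessels also make, was at 30.6, 32.5, 28.6 and 29.3 CPM in CTRL and 43.7, 33.5, 40.7 and 32.96 CPM in DoxoR. Each DoxoR mouse lay above each CTRL mouse, at a log2 fold change of 0.32 ± 0.12 (SE) and an adjusted p of 0.856 in edgeR. Of all tested genes 1.64% were higher without overlap. Gata2, which precedes GATA1 in progenitors, was at −0.29 ± 0.20, the receptor kinase gene Kit at 0.12 ± 0.19 and Myb at −0.15 ± 0.12 on the log2 scale (SE).

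The promoters of the members were searched for the sites that these regulators are known to bind. RefSeq promoters of GRCm38.p6 were at hand for 26 of the 33 genes, in 32 windows, and the 250 bases before the start were read on both strands, with matches of different motifs allowed to overlap. The core bound by GATA1, which reads GATAA on one strand and TTATC on the other, was in 17 of the 32 windows (53.1%), against 22.6% of all 32851 windows of that length. The KLF-type motif CCNCNCCC was in 17 windows (53.1%, against 45.9% of all), and the E-box CAGNTG in 15 (46.9%, against 44.8%). A match is a description of these letters, not a bound site. The 120 bases before the start are shown for 6 members of 4 classes that held this core there, 5′ to 3′ on the strand of the gene, with the core in capitals: Alas2 at chrX:150547297-150547416 on the forward strand, Rhag at chr17:40811029-40811148 on the forward strand, Kel at chr6:41704326-41704445 on the reverse strand, Klf1 at chr8:84901862-84901981 on the forward strand, Epor at chr9:21963577-21963696 on the reverse strand and Hemgn at chr4:46404184-46404303 on the reverse strand.
Alas2: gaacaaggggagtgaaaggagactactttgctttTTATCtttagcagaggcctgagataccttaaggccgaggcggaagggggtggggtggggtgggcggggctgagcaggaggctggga
Rhag: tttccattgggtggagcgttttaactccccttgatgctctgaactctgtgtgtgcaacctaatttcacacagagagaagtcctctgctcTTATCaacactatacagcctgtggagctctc
Kel: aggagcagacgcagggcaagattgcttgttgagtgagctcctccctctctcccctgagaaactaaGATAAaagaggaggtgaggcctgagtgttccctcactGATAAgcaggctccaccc
Klf1: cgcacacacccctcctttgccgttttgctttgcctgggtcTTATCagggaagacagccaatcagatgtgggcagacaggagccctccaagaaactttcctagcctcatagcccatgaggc
Epor: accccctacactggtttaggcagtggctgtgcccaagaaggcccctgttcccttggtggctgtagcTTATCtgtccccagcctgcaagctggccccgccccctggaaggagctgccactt
Hemgn: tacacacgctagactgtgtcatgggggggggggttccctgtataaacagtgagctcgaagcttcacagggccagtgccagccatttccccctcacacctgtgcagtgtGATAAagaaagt
The core began 86 bases before the start in Alas2, 31 in Rhag, 80 in Klf1, 54 in Epor and 12 in Hemgn, and Kel held a pair of them, at 55 and 18. Ermap, Rhd, Uros and Cpox also held the core in the 120 bases before the start and are not shown.

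The 7 remaining genes are used by red cell precursors in other ways, and all 7 were below 0 with a median of −0.32 (from −0.61 without DoxoR 3 to −0.19 without CTRL 4) and adjusted p from 0.856 to 0.884 in edgeR. Hemgn (hemogen), a nuclear protein that GATA1 activates, was at 120.4, 127.7, 171.7 and 167.9 CPM in CTRL 1 to 4 and 89.2, 101.5, 180.8 and 82.7 CPM in DoxoR 1 to 4. DoxoR 3 was thus the highest of all 8 mice and the other 3 DoxoR mice were the lowest. Trim10, a ring finger protein of erythroblasts, had the same order at its ends, with 163.1 CPM in DoxoR 3 and 63.3 to 71.8 CPM in the other DoxoR mice, against 84.6 to 127.5 CPM in CTRL. Car1, carbonic anhydrase 1, which hydrates carbon dioxide in red cells, was at 75.5, 85.6, 117.0 and 92.1 CPM in CTRL and 53.7, 74.0, 106.6 and 57.3 CPM in DoxoR, a log2 fold change of −0.34 ± 0.22 (SE). Bpgm, which makes the 2,3-bisphosphoglycerate that lowers the oxygen affinity of haemoglobin, had a mean of 186 ± 47.5 CPM in CTRL and 148.8 ± 28.7 CPM in DoxoR (SD, n = 4 each), and its log2 fold change was −0.32 ± 0.20 (SE). Tspan33, a tetraspanin of the erythroid lineage, was at −0.40 ± 0.29 (SE). Mkrn1 and Xpo7, a ubiquitin ligase and a nuclear export receptor that many cell types also express, were at −0.24 ± 0.19 and −0.23 ± 0.23 (SE).

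Most of the spread between mice was shared by the members. When each gene's log2 CPM was set against the mean of the other 27 members outside the globins, Ank1 and Sptb (left out of that mean after their values were seen), the groups overlapped for all 33 genes. On this relative scale the mean difference of DoxoR minus CTRL lay between −0.17 (Ermap) and 0.44 (Ank1). The values of a gene spanned a median of 0.345 log2 units over the 8 mice. No share over all tested genes was taken on this scale. Members are set against members here, so differences near 0 are partly by construction.

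Other genes of the pathway were read from 4 lists, which gave 0 genes past the test. Below 0 were 10 of 13 further haem and iron-sulphur genes (median −0.17) and 14 of 18 further membrane genes (−0.16). So were 11 of 16 further regulators (−0.08) and 16 of 17 further maturation genes (−0.17). Over all tested genes 42.8% lay below 0. Some of the listed genes, such as Abcb10 and Ypel4, varied with the members from mouse to mouse, so these counts are not of separate observations. At an unadjusted p under 0.05 in edgeR the 4 lists held 1, 2, 1 and 0 genes, all lower. Of all tested genes 3.23% were lower and 2.13% higher at that limit. The genes named below were among the 4 of smallest unadjusted p in their list. Slc14a1, the urea transporter that carries the Kidd blood group, was at 66.2, 73.1, 98.6 and 81.8 CPM in CTRL and 43.8, 57.0, 65.5 and 50.8 CPM in DoxoR. These 2 groups did not overlap, and the log2 fold change was −0.56 ± 0.16 (SE), with an adjusted p of 0.817 in edgeR. Of the 4 lists only this gene and Jak2 had groups without overlap, while 3.59% of all tested genes had such groups. Jak2, the kinase that signals for the erythropoietin receptor and other cytokine receptors, was at 124, 141, 122 and 103 CPM in CTRL and 94.8 to 96.6 CPM in DoxoR, also without overlap, at −0.36 ± 0.11 (SE; adjusted p = 0.825 in edgeR). Xk, whose product is bound to the Kell protein in the membrane, was at −0.46 ± 0.16, and Hmox1, haem oxygenase 1, which breaks haem down, at −0.60 ± 0.26 (SE; adjusted p = 0.856 in edgeR for each). Alas1, the form of the first haem enzyme that all tissues use, had means of 38.6 ± 4.23 CPM in CTRL and 47.1 ± 11.6 CPM in DoxoR (SD, n = 4 each), with a log2 fold change of 0.29 ± 0.17 (SE; adjusted p = 0.856 in edgeR).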

How the data were processed

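Polyadenylated RNA of 8 mice was sequenced from stranded libraries with unique molecular identifiers, per the labels' protocols; whether these were used in counting is not stated by any label. The deposited values are expected counts per gene, all whole numbers, and the submitters' processing notes name STAR 2.5.3a, RSEM 1.3.0 and GRCh38, a human build, although the identifiers are of mouse genes. Positions came from GENCODE M21 (GRCm38), where 31 of the 33 member identifiers matched with their version and 33 without it, and promoters from RefSeq. Genes were filtered with filterByExpr (minimum count 10, total 15), scaled by TMM and tested with edgeR 4.0.16 (robust quasi-likelihood, two-sided, Benjamini-Hochberg adjustment over 17035 genes, threshold 0.05) in R 4.3.3. DESeq2 1.42.0 and limma 3.58.1 (voom) were alternatives, as were other scalings and filters, the replicate number as a block and each library left out. CPM means are over TMM-scaled values, marker sums over library size. Levels per kilobase used the mean length of a gene's protein-coding GENCODE basic transcripts. The SE came from the F statistic. No 2 libraries agreed within sampling noise (chi-square per degree of freedom at least 29.4 over 28 pairs). The scripts were tested on simulated data. The members and lists were chosen with earlier results of these data known. All 33 members were to be named, with up to 4 genes of smallest p from each further list and the 10 genes most like the members over the libraries, of which 4 are given.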

Additional observations from a re-analysis of the deposited data

Results flagged for a closer look

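Single mice far from the others of their group were found in 12 of 82 groups of 4, where chance flags about 1 in 20. All 12 were DoxoR 3, for genes that vary together and so are not separate events. In haem synthesis DoxoR 3 stood at 42.2 CPM for Alad (the other DoxoR mice reached at most 23.4), 87.2 for Urod (50.1), 101 for Ppox (65.5) and 262 for Fech (168). In the membrane class it stood at 78.1 CPM for Gypc (46.7), 121 for Epb42 (61), 381 for Epb41 (237), 83.3 for Kel (42.2) and 172 for Ermap (90). Among the other erythroid genes it stood at 163 CPM for Trim10 (71.8), 69.3 for Tspan33 (35.3) and 302 for Xpo7 (171).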

How the results depend on the processing

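Over all tested genes the count past the threshold was 0, but 29 in DESeq2 (7 higher, 22 lower) and 1 with no filter on low counts. Of the 33 members 0 passed in any setting, an adjusted p threshold of 0.1 included. At an unadjusted p under 0.05 the 0 members became 1 with no filter, 3 with the replicate block and, with 1 library left out, between 0 and 26 (26 without DoxoR 3, 1 without CTRL 1). All member values kept their sign under the other scalings, filters and tools and under the block. With 1 library left out, 3 of 264 turned: Ank1 ranged from −0.14 to 0.31, Sptb from −0.34 to 0.16 and Slc4a1 from −0.53 to 0.17. The log2 ratio of beta to alpha globin between the groups ranged from −0.19 to 0.027 (turned without CTRL 3), and that of Hba-a2 to Hba-a1 from 0.051 to 0.064. The median coefficient of variation of the members ranged from 19.2% to 27.5% in CTRL and from 10.4% (without DoxoR 3) to 38.8% in DoxoR; it and the globin ratios were left-out checks chosen after seeing the data. Same-numbered libraries had deviations from their group means that correlated at 0.342, −0.266, 0.43 and 0.0902 for numbers 1 to 4. CTRL 1, 3 and 4 and DoxoR 1 and 3 correlated best with their own number, while CTRL 2 and DoxoR 2 and 4 did not. With the block 8.61% of all tested genes had an unadjusted p under 0.05 in edgeR, against 5.36% without it. No label says what the numbers pair, so they were not taken as pairs, and these values do not settle it. With 4 mice a group, the spread between mice limits the precision.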

Other observations

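Macrophages of the marrow nurse erythroblasts and clear old red cells. All 8 of their markers had log2 fold changes below 0 beside the erythroid genes, against 42.8% of all tested genes. Timd4, a receptor for phosphatidylserine on dying cells, was at 1.35, 1.03, 2.95 and 2.03 CPM in CTRL 1 to 4 and 0.61, 0.42, 0.30 and 0.48 CPM in DoxoR 1 to 4, a log2 fold change of −2.06 ± 0.38 (SE). Cd163, the scavenger receptor for haemoglobin bound to haptoglobin, was at 22.5, 19.2, 33.2 and 33.8 CPM in CTRL and 10.8, 17.3, 10.3 and 9.47 CPM in DoxoR, a log2 fold change of −1.18 ± 0.24 (SE). In both genes each DoxoR mouse lay below each CTRL mouse, DoxoR 3 included, and neither passed the test (adjusted p = 0.698 and 0.703 in edgeR). Adgre1 was the only other of the 8 markers without overlap, also lower, while 1.95% of all tested genes were lower without overlap. At an unadjusted p under 0.05 in edgeR stood 4 of the 8, all lower, against 3.23% of all tested genes. Spic, the factor that haem induces in red pulp and marrow macrophages, was at −0.47 ± 0.26 (SE; adjusted p = 0.856 in edgeR), with overlapping groups.

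The genes outside the list whose log CPM was most like the mean of the members outside the globins were Samd11 (Pearson r = 0.993, Spearman rho = 0.952), Btnl10 (0.991 and 0.976), Fhdc1 (0.991 and 1) and March8 (0.99 and 0.952), over 8 libraries and as a description. Their log2 fold changes were −0.23, −0.35, −0.34 and −0.15. Of the 10 most alike, Abcb10 and Ypel4 were on the further lists of pathway genes.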
